A study of Mus musculus with 8 samples.

Results

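Ly6a, Clu, Cd44, Spp1, Lcn2, Il33 and Cd24a are 7 mouse genes used as markers of injured, regenerating or progenitor-like epithelium. They were taken by symbol from a table of 31228 genes, and each was found once. Polyadenylated RNA from C57BL/6 mice was sequenced in 8 libraries, and levels are in FPKM, which is a read count scaled to exon length and to library size. There was 1 library of extrahepatic bile duct epithelium, 1 of pancreatic duct epithelium, 3 of bile duct organoids and 3 of pancreatic duct organoids. The study asked how alike the epithelia of these ducts are, and how alike the organoids grown from them are. Ducts of all groups were dissected, minced and treated with collagenase IV, and the epithelia were then lysed in Trizol without culture. Organoids, hollow epithelial cultures in Matrigel, were taken after passages 3 to 4. Their medium held EGF, R-Spondin-1, Noggin, FGF10, nicotinamide, N-acetylcysteine and B27, with Wnt3A conditioned medium and Y27632 only until luminal organoids had formed. Age, sex and the number of mice are not given, and no label says that the 3 cultures of an organ came from separate animals. The p-values between the organoid groups therefore measure only the spread between these cultures, which may be technical. Where organoids are set against epithelia over both organs, limma p-values also take in how far the organs differ in that change. The single epithelium of each organ has no replicate.

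In injured gut, liver and pancreas, epithelial cells can switch to a repair state with features of fetal epithelium, in which surface and secreted proteins of the kind studied here are made. Ly6a (Sca-1) and clusterin (Clu) are used to mark that state in intestine, whereas osteopontin (Spp1), Cd44 and Cd24a are used to find duct and progenitor cells in liver and pancreas. Lcn2 and Il33 belong to epithelial defence and alarm, and NF-kB and C/EBP factors are well-known activators of Lcn2.

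The genes lie on 6 chromosomes of GRCm38, and all are protein coding. Lcn2 (ENSMUSG00000026822) spans chr2:32384633-32388252 and Cd44 (ENSMUSG00000005087) spans chr2:102811141-102901665, both on the minus strand. Spp1 (ENSMUSG00000029304) spans chr5:104435118-104441050 on the plus strand and Cd24a (ENSMUSG00000047139) spans chr10:43578284-43584265 on the plus strand. Clu (ENSMUSG00000022037) spans chr14:65968483-65981548 on the plus strand, Ly6a (ENSMUSG00000075602) spans chr15:74994877-74998031 on the minus strand and Il33 (ENSMUSG00000024810) spans chr19:29925114-29960718 on the plus strand. The small RNA gene Gm23731 lies within Cd44 on the other strand and reached at most 4.20 FPKM. The unproven transcript Gm42793 overlaps Spp1 on the same strand and reached at most 3.68 FPKM, so a small part of the Spp1 level cannot be told apart from it. Values are per gene and do not separate the splice forms of Cd44.

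Promoter sequence is shown for 3 genes on which the results turn, Lcn2 as the most variable between cultures and Cd44 and Il33 as those that differed between organoids and epithelia by the test. Each line gives the 250 bases before a transcription start in RefSeq for GRCm38.p6, read 5′ to 3′ on the gene's strand, with motif matches in capitals. The RefSeq start of Lcn2 and the second one of Il33 lie within the gene spans given above.
Lcn2, chr2:32387740-32387989, minus strand: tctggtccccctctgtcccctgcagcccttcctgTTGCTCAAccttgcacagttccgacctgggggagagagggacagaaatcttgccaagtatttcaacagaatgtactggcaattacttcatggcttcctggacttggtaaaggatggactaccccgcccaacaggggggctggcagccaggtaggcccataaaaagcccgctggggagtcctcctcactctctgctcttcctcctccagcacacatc
Cd44, chr2:102901666-102901915, minus strand: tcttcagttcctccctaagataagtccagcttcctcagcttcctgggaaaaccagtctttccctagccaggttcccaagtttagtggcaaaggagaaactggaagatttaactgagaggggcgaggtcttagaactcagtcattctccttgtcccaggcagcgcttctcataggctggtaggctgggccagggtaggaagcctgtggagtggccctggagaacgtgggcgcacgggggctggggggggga
Il33, first start, chr19:29924863-29925112, plus strand: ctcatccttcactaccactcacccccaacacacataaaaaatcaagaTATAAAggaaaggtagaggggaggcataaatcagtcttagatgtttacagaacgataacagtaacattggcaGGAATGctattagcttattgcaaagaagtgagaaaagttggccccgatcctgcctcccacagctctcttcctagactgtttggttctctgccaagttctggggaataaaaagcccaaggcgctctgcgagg
Il33, second start, chr19:29945540-29945789, plus strand: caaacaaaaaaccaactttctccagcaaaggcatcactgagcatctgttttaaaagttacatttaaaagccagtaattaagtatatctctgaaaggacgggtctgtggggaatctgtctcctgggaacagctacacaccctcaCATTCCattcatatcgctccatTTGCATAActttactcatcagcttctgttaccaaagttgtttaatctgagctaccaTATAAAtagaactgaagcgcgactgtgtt
Motifs were searched on both strands: NF-kB as GGGANNNNCC, AP-1 as TGANTCA, TEAD as GGAATG, C/EBP as TTGCNNAA and the TATA box as TATAAA. Of 32851 mouse promoter windows of this length, 17.6% held the NF-kB letters, 6.75% those of AP-1, 12.6% those of TEAD, 9.56% those of C/EBP and 12.4% those of the TATA box. The Lcn2 window held 1 C/EBP match, 216 bases before the start, and the Cd44 window held none of the 5 motifs. At Il33, the first start had a TEAD match 131 bases and a TATA match 203 bases upstream. The second start had a TEAD match at 107 bases, a C/EBP match at 85 bases and a TATA match at 29 bases upstream. Each match is a run of letters and not a measured site, and an empty window says only that these letters are not in it. The table used here holds windows for 4 of the 7 genes, the fourth being Spp1.

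Across the 8 libraries, the deposited values implied between 12876468 and 20828214 reads each. The libraries labelled as epithelium held much other tissue. Their summed acinar markers (9 genes, such as Ctrb1 and Prss2, which encode digestive enzymes) came to 18949 FPKM in the bile duct library and 39328 in that of pancreatic duct, against 1.65 to 8.17 in the organoids. The 12 duct epithelium markers (keratins, Epcam, Cdh1, Sox9 and others) summed to 2373 and 519 FPKM in the epithelia and to 5155 to 11664 in the organoids. Leukocyte markers summed to 462 and 418 FPKM in the epithelia and to 3.00 to 13.2 in the organoids, fibroblast markers to 1718 and 1768 against 0.332 to 3.12, endothelial markers to 675 and 1057 against 1.43 to 2.10, and smooth muscle markers to 1986 and 3481 against 0.339 to 0.686. Intestinal epithelium markers (9 genes) summed to 1416 FPKM in the bile duct library and 27.5 in that of pancreatic duct. In the organoids they summed to 80.6 to 249. Of these, Tff3 gave 1071 and 5.25 FPKM in the epithelia. Fabp2 stood at 96.0 and 4.63 and Alpi at 94.6 and 3.13, against at most 0.740 in the organoids. Hepatocyte markers summed to 340 and 98.2 FPKM in the epithelia and to 9.85 to 153 in the organoids. In such bulk samples, fewer cells of a type and less RNA per cell cannot be told apart. The part of the tissue makeup in any difference between epithelium and organoid was not tested.

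**Figure D1:**
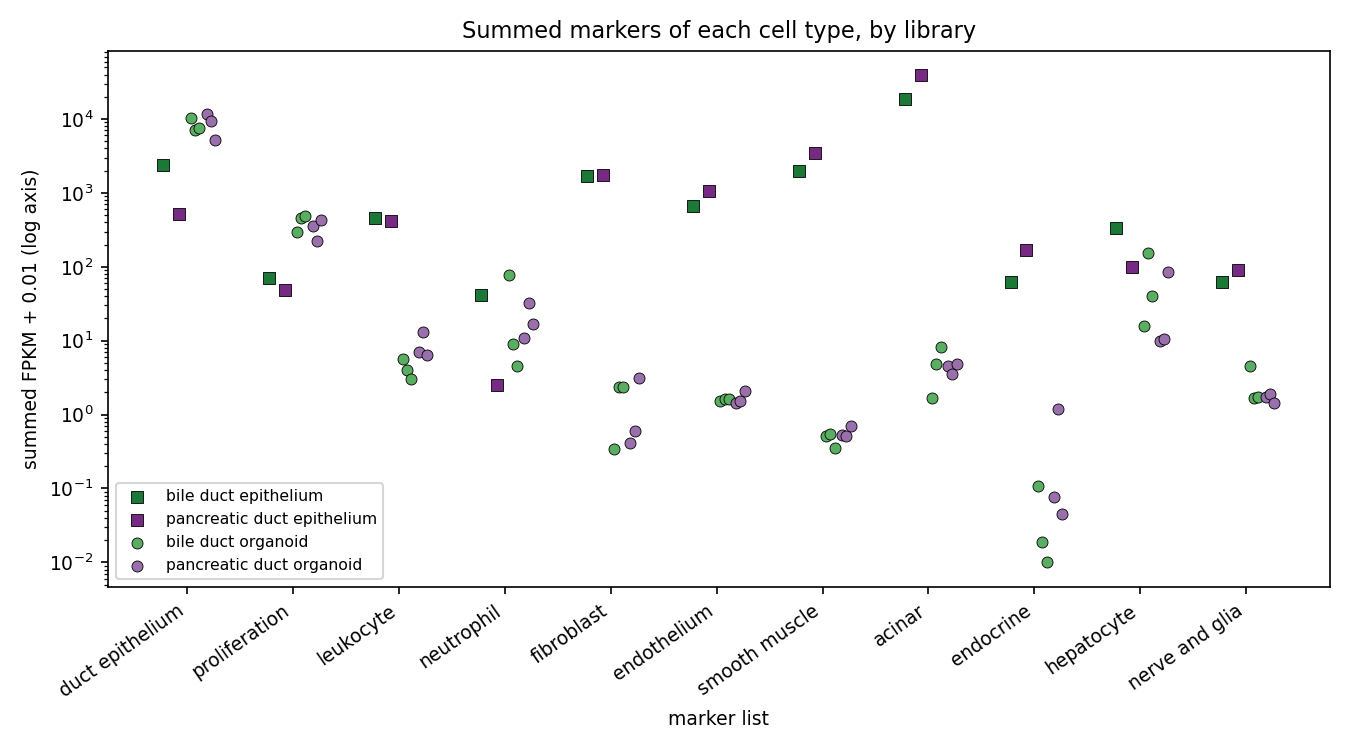
Summed FPKM of the marker genes of each cell type (log axis, with 0.01 added), by library: squares are the 2 epithelia and circles the 6 organoids, green for bile duct and purple for pancreatic duct. Acinar markers stand at 18949 and 39328 FPKM in the epithelia and at 1.65 to 8.17 in the organoids, while duct epithelium markers are higher in every organoid than in either epithelium.

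The surface proteins are taken first. Cd44 binds hyaluronan and osteopontin at the cell surface. It stood at 56.2 FPKM in the epithelium of bile duct and 12.9 in that of pancreatic duct. It reached 423, 179 and 163 FPKM in cultures 1, 2 and 3 of bile duct, and 227, 389 and 198 in pancreatic duct organoids 1, 2 and 3. Every organoid lay above both epithelia, and the organoid groups overlapped, at 255 ± 146 (SD, n = 3) and 271 ± 103 (SD, n = 3) FPKM.

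Ly6a encodes a small lipid-anchored protein known as Sca-1. It stood at 356 FPKM in the epithelium of bile duct and at 346 in that of pancreatic duct, nearly the same level. The bile duct cultures held 51.8, 229 and 322 FPKM and the pancreatic duct cultures 808, 221 and 424. Bile duct organoid 1 was the lowest library and pancreatic duct organoid 1 the highest, and the organoids spread to both sides of the epithelia. The group means were 201 ± 137 and 484 ± 298 FPKM (SD, n = 3 each). Fibroblasts, endothelial cells and leukocytes are also known to make Ly6a, and markers of all 3 were at their highest in the epithelia.

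Cd24a encodes a heavily glycosylated, lipid-anchored adhesion protein. It stood at 228 FPKM in the epithelium of bile duct and 95.7 in that of pancreatic duct. The bile duct cultures held 239, 210.0 and 207 FPKM and the pancreatic duct cultures 236, 242 and 219. All 6 organoids were within 1.17-fold of each other and near bile duct epithelium, and pancreatic duct epithelium alone was low. The group means were 218 ± 17.6 and 232 ± 12.3 FPKM (SD, n = 3 each).

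Among the secreted proteins, osteopontin (Spp1) is a matrix ligand of integrins and Cd44 that biliary and pancreatic duct cells make. It stood at 366 FPKM in the epithelium of bile duct and 157 in that of pancreatic duct. The bile duct cultures held 644, 305 and 439 FPKM and the pancreatic duct cultures 269, 1437 and 908. Pancreatic duct organoids gave both the lowest and the highest culture, and the groups overlapped, at 871 ± 585 FPKM (SD, n = 3) against 463 ± 171 (SD, n = 3) in bile duct organoids.

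Clusterin, an extracellular chaperone, was the most abundant of the 7 in 6 of 6 organoids by length-scaled level (FPKM), and in both epithelia. Clu stood at 846 FPKM in the epithelium of bile duct and 406 in that of pancreatic duct. The bile duct cultures held 2625, 706 and 645 FPKM and the pancreatic duct cultures 1708, 2639 and 1087. Bile duct organoids 2 and 3 lay below their epithelium and every other organoid lay above both epithelia. The group means were 1325 ± 1126 and 1811 ± 781 FPKM (SD, n = 3 each).

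Lipocalin 2 (Lcn2) binds bacterial iron carriers and is made by inflamed epithelium and by neutrophils. It stood at 31.3 FPKM in the epithelium of bile duct and 22.9 in that of pancreatic duct. The bile duct cultures held 530.3, 14.04 and 12.7 FPKM and the pancreatic duct cultures 63.8, 442 and 70.3. The first bile duct culture and the second pancreatic duct culture stood far above the others, and the remaining bile duct cultures lay below both epithelia. The means of 186 ± 298 and 192 ± 216 FPKM (SD, n = 3 each) thus had SDs larger than themselves. Of the neutrophil markers, Csf3r was at 0 FPKM in all organoids, and the list summed to 4.47 to 77.9 FPKM there, nearly all from lactoferrin (Ltf), which epithelia also make.

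Interleukin 33 (Il33) is a cytokine held in the nucleus and released from damaged cells, which acts on immune cells through the receptor encoded by Il1rl1. It stood at 22.4 FPKM in the epithelium of bile duct and 27.7 in that of pancreatic duct. The bile duct cultures held 5.70, 8.50 and 13.05 FPKM and the pancreatic duct cultures 6.84, 2.95 and 5.21. Every organoid lay below both epithelia, and the group means were 9.08 ± 3.71 and 5.00 ± 1.95 FPKM (SD, n = 3 each). The lowest value of any of the 7 genes, in pancreatic duct organoid 2, rested on 150 reads, with a 95% Poisson interval of 2.50 to 3.47 FPKM that covers counting error only. Fibroblasts and endothelial cells are known makers of Il33, and their summed markers were at least 675 FPKM in the epithelia and at most 3.12 in the organoids.

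**Figure D2:**
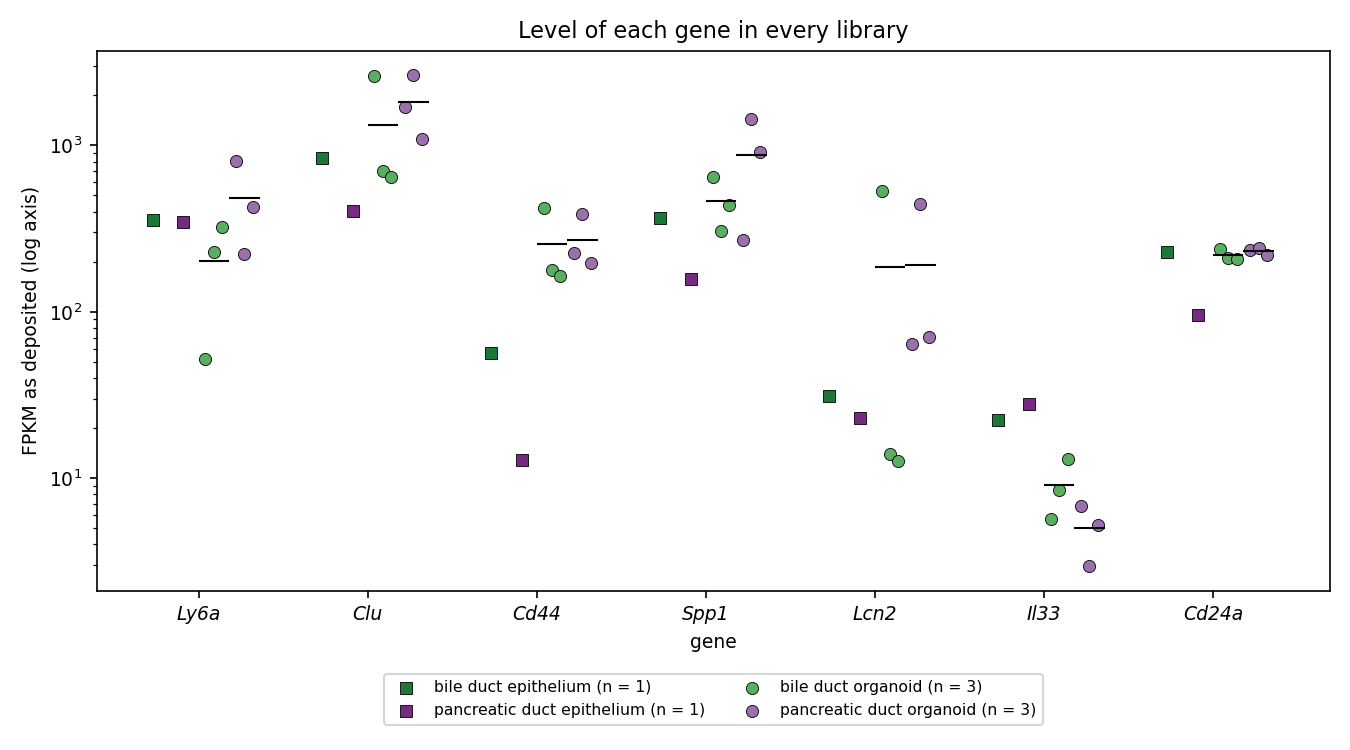
FPKM as deposited (log axis) of each gene in each of the 8 libraries: squares are the single epithelia, circles the organoid cultures, and black bars the means of 3 cultures. Cd44 is higher and Il33 lower in every organoid than in either epithelium, Cd24a is nearly level among organoids, and Lcn2 runs from 12.7 to 530.3 FPKM among them.

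Culture was compared with tissue over both organs. On average over the organs, Cd44 rose 7.92-fold in the organoids and Il33 fell, to a level 3.83-fold lower. The fit was limma on log2(FPKM + 1) of all 8 libraries, with organ as a term, after scaling by a trimmed mean of log ratios over all genes. Because 1 is added to each value, folds of weakly expressed genes come out too small. The log2 difference of Cd44 was 2.98 (SE 0.61, limma adjusted p = 0.00473) and that of Il33 was -1.94 (SE 0.37, limma adjusted p = 0.00331). Thus 1 of the 7 genes was higher and 1 lower, where 32.3% of the 14919 genes tested were higher and 27.0% lower, and 5 of the 7 did not pass. All 7 passed the filter of 1 FPKM in 2 libraries. The median difference was 1.05 over the 7 and 0.11 over all genes tested. In deposited FPKM, 1 of the 7 (Cd44) lay above both epithelia in all 6 organoids and 1 (Il33) below both, where 39.9% and 25.7% of all genes did.

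For the other 5 genes the 95% interval of the log2 difference held 0. It ran from -2.41 to 1.22 around -0.59 for Ly6a, from -0.63 to 2.72 around 1.05 for Clu, and from -0.61 to 2.75 around 1.07 for Spp1. For Lcn2 it ran from -2.34 to 5.03 around 1.35, the widest of the 7, and for Cd24a from -0.23 to 1.14 around 0.45. The limma adjusted p-values of these 5 lay between 0.212 for Cd24a and 0.531 for Ly6a. Leaving out 1 library at a time, Lcn2 ran from 0.43 (without pancreatic duct epithelium) to 2.27 (without bile duct epithelium), Clu from 0.19 to 1.92 and Spp1 from 0.13 to 2.02 at the same ends. An exact two-sided permutation test of 2 epithelia against 6 organoids gave p = 0.0357 for Cd44 and for Il33, the smallest value its 28 splits allow, with no adjustment.

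Both calls were lost without pancreatic duct epithelium. The log2 difference of Cd44 was then 1.89 (limma adjusted p = 0.0699) and that of Il33 was -1.41 (limma adjusted p = 0.0604). Without bile duct epithelium, Cd24a passed, at 1.13 (limma adjusted p = 0.00689). With organ as a term, each of these fits sets the 1 epithelium left against only the 3 organoids of its own organ. They thus repeat the comparison within that organ. The organoids of the other organ enter only the spread, and the epithelium is assumed to vary as the organoids do. Without bile duct organoid 1 and pancreatic duct organoid 2, which stood apart for several of the genes, Cd44 was at 2.61 (limma adjusted p = 0.0111) and Il33 at -1.67 (limma adjusted p = 0.00597), a check added after seeing the data.

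Because the epithelia held so much other tissue, the values were also scaled on 5 epithelial genes, Epcam, Cdh1, Krt8, Krt18 and Cldn7. Their geometric mean was 225 FPKM and 50.3 FPKM in the epithelia of bile and pancreatic duct, and 537 to 1063 across the cultures. On that scale the median of all genes tested moved to -2.23, and 118 genes (0.791%) were higher and 12508 (83.8%) lower in organoids. Cd44 per unit of epithelial RNA was 0.249 and 0.256 in the epithelia. It was 0.398, 0.271 and 0.244 in the bile duct cultures and 0.261, 0.436 and 0.368 in the pancreatic duct organoids. These values overlapped, and the log2 difference of 0.35 (95% interval -0.85 to 1.54, limma adjusted p = 0.588) did not pass.

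Il33 fell under both scalings, by 4.46 on the log2 scale per epithelial gene (limma adjusted p = 7.84e-12). Ly6a fell by 3.27 on that scale (limma adjusted p = 1.97e-07), with ratios of 1.58 and 6.89 in the epithelia and 0.0487 to 0.929 in the organoids, so that the groups did not overlap. Clu, Spp1, Lcn2 and Cd24a turned from positive to negative, at -1.64, -1.62, -1.29 and -2.23, with limma adjusted p-values of 0.00599, 0.00837, 0.0430 and 0.000438. These p-values on the epithelial scale, those of the gene lists included, do not reflect each gene's own spread, since limma there gave genes of like level nearly the same variance, with SEs of 0.57 to 0.63 for the 7 genes. From its own spread the SE of Lcn2 was 1.52 and that of Ly6a 1.06, and that of Cd24a was 0.28. The exact two-sided permutation test on this scale, added after seeing the data, gave p = 0.536 for Lcn2, 0.107 for Spp1 and 0.25 for Cd44, and 0.0357, the smallest it allows, for the other 4, with no adjustment. The ratios of Lcn2 overlapped, at 0.139 and 0.456 in the epithelia and 0.0190 to 0.499 in the cultures, and so did those of Spp1, at 1.62 and 3.12 against 0.309 to 1.69. The ratios of Clu (3.75 and 8.07 against 0.964 to 2.96) and Cd24a (1.01 and 1.90 against 0.225 to 0.407) did not overlap. In all, 4 of the 7 lay below both epithelia in every culture and 0 above both, where 76.7% and 0.804% of all genes did, so these 4 are near the background. Of the 7 genes, Il33 and Ly6a had differences below the median of all genes on this scale, Cd24a lay at it, and the other 4 lay above it. The sign of a culture difference for Clu, Spp1, Lcn2 and Cd24a thus depends on what the values are scaled to.

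**Figure D3:**
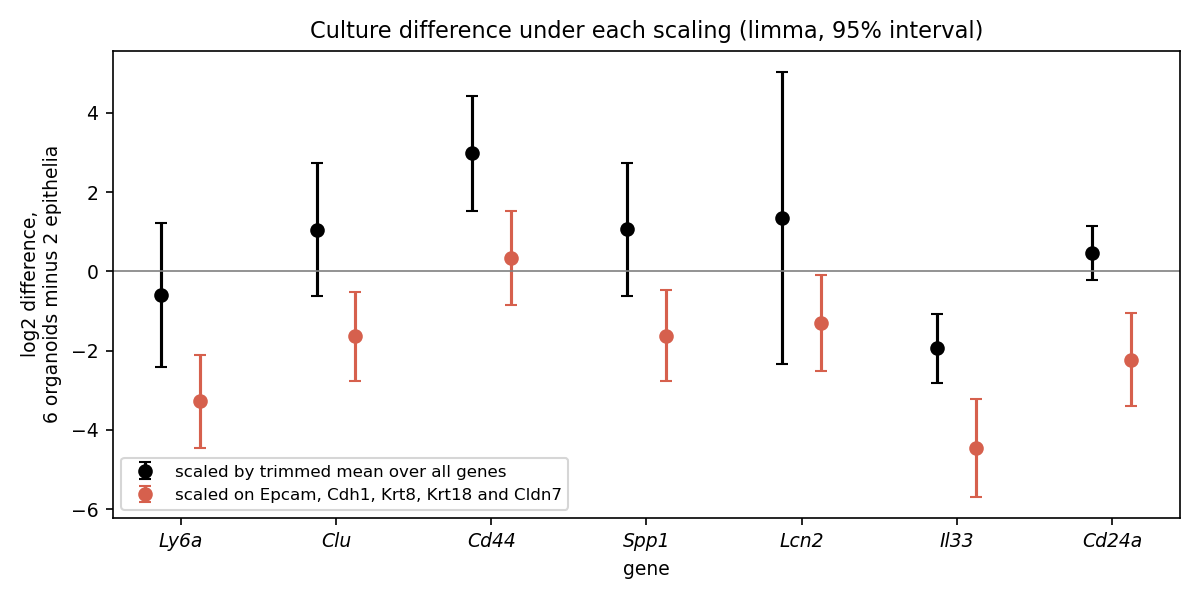
Log2 difference of the 6 organoids from the 2 epithelia for each gene, with 95% limma intervals, under scaling over all genes (black) and on 5 epithelial genes (red). Under the first, only the intervals of Cd44 (above 0) and Il33 (below 0) leave out 0, and under the second every gene but Cd44 lies below 0.

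Within each organ, the 3 organoids were set against their single epithelium without a test. A gene was called where the mean log2 difference was at least 1 in size and all 3 cultures lay on the same side. In bile duct, Cd44 was higher, by 1.87, and Ly6a and Il33 were lower, at -1.33 and -1.42. That is 1 of 7 higher and 2 of 7 lower, where 14.7% of 15227 genes were higher and 24.6% lower. Clu, Spp1, Lcn2 and Cd24a were not called, at 0.18, 0.12, 0.42 and -0.22. Of the 3 cultures, bile duct organoid 1 stood apart for Ly6a, with -2.83 against -0.82 and -0.35, and for Lcn2, with 3.97 against -1.28 and -1.43. Without it, Ly6a was at -0.56 and no longer called, and Lcn2 turned to -1.33, a call in the lower direction. Scaled on the 5 epithelial genes, 0 of 7 were higher in bile duct organoids, where 2.09% of genes were, and 5 of 7 were lower, where 63.9% were. On that scale Ly6a was at -2.95, Il33 at -2.91, Cd24a at -1.85, Spp1 at -1.51 and Clu at -1.46, while Cd44 (0.25) and Lcn2 (-1.17) were not called.

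In pancreatic duct, 5 of 7 genes were higher, where 17.9% of 14984 genes were, and 1 was lower, where 23.3% were. Cd44 was higher by 4.10, Lcn2 by 2.27, Spp1 by 2.02, Clu by 1.92 and Cd24a by 1.13 on the log2 scale. Il33 was lower, at -2.45, and Ly6a was not called, at 0.15. By the rule of the call, all 3 cultures lay on 1 side for these 6 genes. The smallest difference of a single culture was that of Spp1 in pancreatic duct organoid 1, at 0.66. Single cultures moved the sizes for Lcn2 and Spp1: Lcn2 was at 1.33 without pancreatic duct organoid 2, and Spp1 was at 1.47 without that culture and at 2.70 without pancreatic duct organoid 1. Scaled on the 5 epithelial genes, 0 of 7 were higher in pancreatic duct organoids, where 0.981% of genes were, and 5 of 7 were lower, where 93.7% were. On that scale Il33 was at -6.00, Ly6a at -3.60, Cd24a at -2.61, Clu at -1.83 and Spp1 at -1.72, while Cd44 (0.44) and Lcn2 (-1.42) were not called. Between the epithelia themselves, Cd44 was higher in bile duct by 2.05, Cd24a by 1.24, Spp1 by 1.21 and Clu by 1.06. These 4 of 7 were called at a difference of 1 between single libraries, where 9.07% of 15092 genes were higher, and 0 of 7 were lower, where 4.31% were. Lcn2 (0.43), Ly6a (0.04) and Il33 (-0.30) were nearer. Intestinal epithelium markers were also higher in the bile duct library, at 1416 against 27.5 FPKM, and so were hepatocyte markers, at 340 against 98.2. Acinar, endothelial and smooth muscle markers, among others, were lower in it. The part of such tissue in these differences, or in the 5 epithelial genes used for scaling, was not tested. The organ comparisons share these epithelia, so a low value in pancreatic duct epithelium enters both. The duct epithelium markers were also lower there, at 519 against 2373 FPKM, and scaled on the 5 epithelial genes, Clu, Cd44, Spp1 and Cd24a turned to -1.10, -0.04, -0.94 and -0.91 between the epithelia, and Il33, Ly6a and Lcn2 were at -2.45, -2.12 and -1.70.

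**Figure D4:**
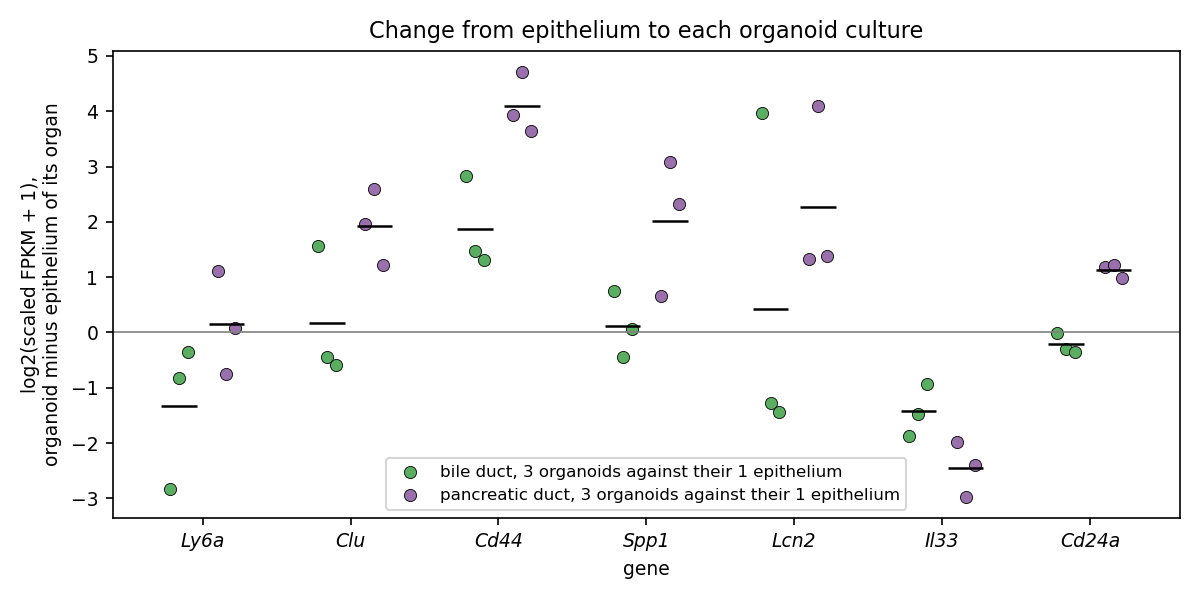
Difference of each organoid culture from the epithelium of its organ on the log2(scaled FPKM + 1) scale: green circles are bile duct, purple circles pancreatic duct, and bars the means of 3 cultures. Cd44 is above 0 and Il33 below 0 in all 6 cultures, and Lcn2 in bile duct runs from -1.43 to 3.97.

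Between the organoid groups, none of the 7 genes differed by the test. Limma on the 6 organoids called 0 of 12106 genes (0%) in either direction, with 310 genes at an unadjusted p under 0.05 and a smallest adjusted p of 0.987, and limma without the intensity trend also called 0. None of the 7 was among those 310. For bile duct minus pancreatic duct, the log2 differences and 95% intervals were -1.44 (-3.26 to 0.38) for Ly6a, 0.73 (-0.08 to 1.53) for Il33 and -0.18 (-1.31 to 0.96) for Cd44. They were -0.69 (-2.26 to 0.88) for Clu, -0.69 (-2.24 to 0.87) for Spp1 and -1.42 (-5.31 to 2.47) for Lcn2. Cd24a had the narrowest, at -0.10 (-0.44 to 0.23), which leaves out a difference of 2-fold either way on this scale. The limma adjusted p was 1.00 for each. For the other 6 genes the spread between cultures allows differences of 2-fold or more in at least 1 direction. The 2 groups overlapped for each of the 7, where 6.37% of the 12106 genes did not overlap. Leaving out 1 culture moved several differences: Lcn2 was at -3.19 without bile duct organoid 1 and at -0.48 without pancreatic duct organoid 2. Clu ran from -1.37 without bile duct organoid 1 to -0.30 without bile duct organoid 3, and Ly6a from -1.93 without bile duct organoid 3 to -0.68 without bile duct organoid 1. Spp1 ran from -1.36 without pancreatic duct organoid 1 to -0.14 without pancreatic duct organoid 2. Without pancreatic duct organoid 3, 16 genes passed, 1 higher and 15 lower in bile duct organoids. None of the 7 was among them.

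The spread between cultures was wide for most of the 7 genes. Over the 6 organoids, the highest level was 41.7-fold the lowest for Lcn2, and 0.107% of the 12106 genes had a wider log2 range. The span was 15.6-fold for Ly6a (0.421% of genes wider), 5.35-fold for Spp1 (2.74%), 4.42-fold for Il33 (5.82%) and 4.09-fold for Clu (4.53%). It was 2.59-fold for Cd44 (11.4%) and 1.17-fold for Cd24a (93.3%). The median log2 range over all genes was 0.57, so Cd24a varied less than most genes and the other 6 more.

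Bile duct organoid 1 and pancreatic duct organoid 2 held the highest levels of Lcn2, Clu, Cd44 and Cd24a and the lowest of Ly6a. For Clu, Cd44 and Cd24a the 4 others followed in the order pancreatic duct organoid 1, pancreatic duct organoid 3, bile duct organoid 2 and bile duct organoid 3. For Cd24a this order runs only from 242 to 207 FPKM. Spp1 departed from it, with pancreatic duct organoid 3 above bile duct organoid 1. Il33 was lowest in pancreatic duct organoid 2 and highest in bile duct organoid 3. The 10 proliferation markers summed to 300.3, 457 and 492 FPKM in cultures 1, 2 and 3 of bile duct and to 361, 221 and 435 in pancreatic duct organoids 1, 2 and 3. The non-coding RNA Xist, made from the inactive X chromosome of females, stood at 19.7, 88.6 and 89.1 FPKM and at 23.6, 21.0 and 81.3 in the same order. The part of proliferation or of Xist level in the spread of the 7 genes was not tested.

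Other defence genes were chosen, after their values were seen, to show this spread. The oxidase gene Duox2 stood at 112, 27.5 and 12.3 FPKM in the bile duct cultures and 21.8, 77.7 and 18.8 in pancreatic duct organoids 1, 2 and 3. The neutrophil attractant Cxcl1 stood at 83.4, 13.8 and 13.4 FPKM and at 19.2, 67.8 and 21.6. Complement C3 stood at 346, 60.2 and 25.9 FPKM and at 46.0, 220.1 and 53.6. The antiprotease Slpi stood at 65.3, 4.24 and 7.46 FPKM and at 9.35, 39.8 and 3.91. Bile duct organoid 1 and pancreatic duct organoid 2 were each the highest of their group for 16 of the 17 defence genes with at least 5 FPKM in an organoid and for 5 of the 7 genes, where 20.0% of the 12106 genes had this pattern. The tally was made after the pattern was seen, and it is a description of these cultures without a test. The exception was Ccl20, at 8.63 FPKM in pancreatic duct organoid 1 and 8.60 in pancreatic duct organoid 2.

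**Figure D5:**
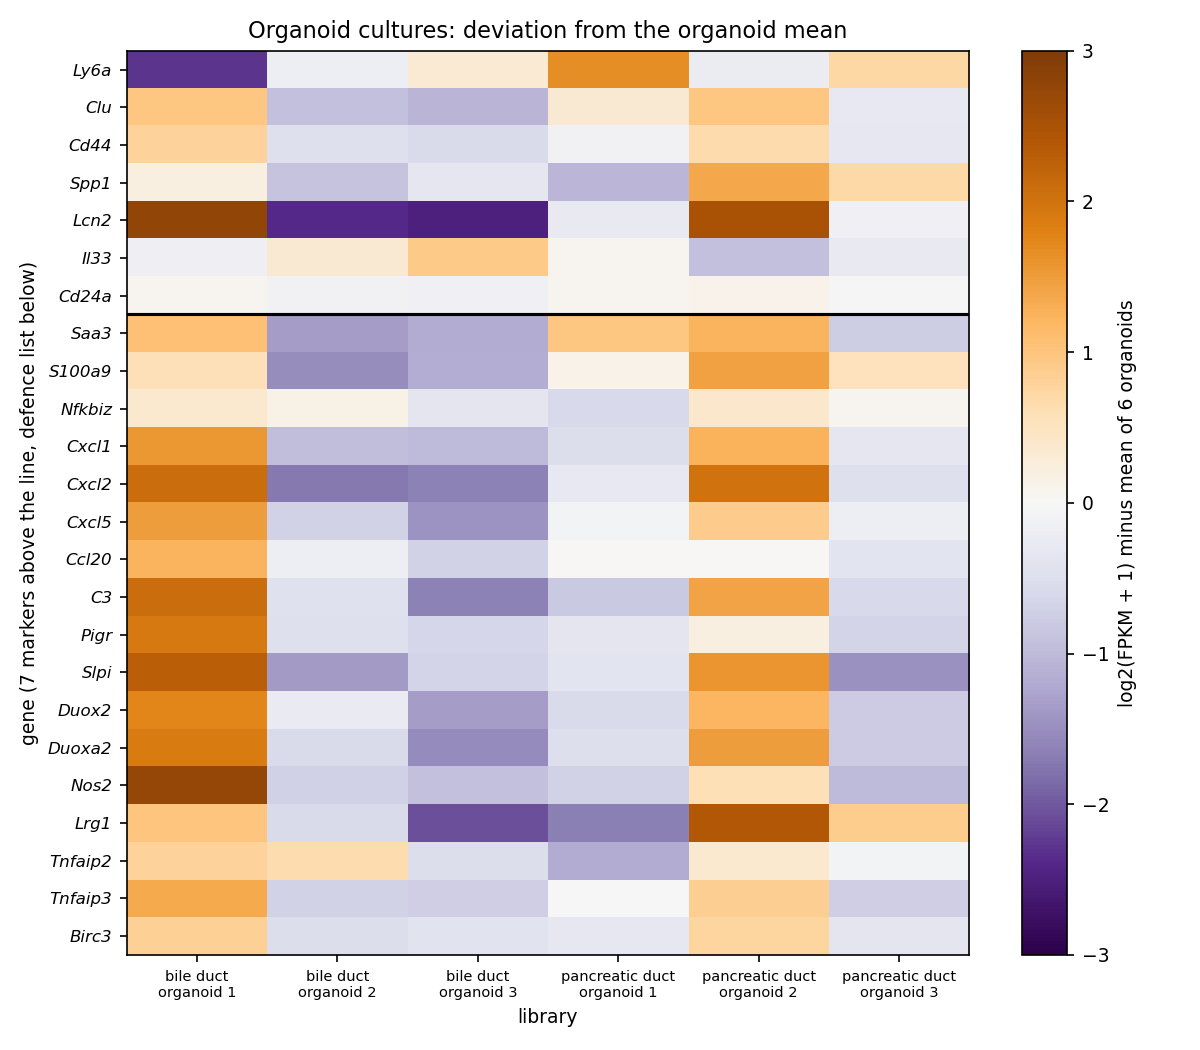
Deviation of log2(FPKM + 1) from the mean of the 6 organoids (color, orange above and purple below) for the 7 genes above the line and for the 17 defence genes with at least 5 FPKM in an organoid below it. Columns are the cultures; Lcn2 is high in bile duct organoid 1 and pancreatic duct organoid 2, and Cd24a is nearly even.

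Other genes of regenerating epithelium (19 listed, such as annexins and growth factors of the EGF family) depended on the scaling: 10 rose, 2 fell and 7 did not pass in the organoids, and on the epithelial scale 3 rose, 8 fell and 8 did not pass. Over all 14919 genes tested, 32.3% rose and 27.0% fell, and on the epithelial scale 0.791% rose and 83.8% fell. The median log2 difference was 1.65 against 0.11 over all genes, and -1.02 against -2.23 on the epithelial scale. Msln, a surface protein, rose by 4.53 (limma adjusted p = 0.000127) and by 1.89 on the epithelial scale (limma adjusted p = 0.00262). The EGF receptor ligands Areg and Ereg rose by 3.86 and 2.83 (limma adjusted p = 0.00637 and 0.00119), and the inhibitor Il1rn by 2.82 (limma adjusted p = 0.0279). On the epithelial scale Ereg and Il1rn did not pass. Dmbt1, a secreted defence scavenger protein, fell by 3.90 (limma adjusted p = 0.0132), from 1712 and 326 FPKM to 16.9 to 178, and fell under both scalings.

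Of 23 epithelial defence and acute phase genes tested, 3 rose, 6 fell and 14 did not pass, and on the epithelial scale 2 rose, 18 fell and 3 did not pass. The fallen genes were thus near their background under both scalings (27.0% and 83.8% of all genes), and the risen genes stood against 32.3% and 0.791%. The median was -0.40 against 0.11 over all genes, and -2.69 against -2.23 on the epithelial scale. The antibacterial lectin genes Reg3b and Reg3g were lower, at -8.42 and -5.68 (limma adjusted p = 1.01e-06 and 0.000386), and the immunoglobulin carrier Pigr fell by 4.71 (limma adjusted p = 0.0132). Haptoglobin (Hp) fell by 2.67 (limma adjusted p = 0.00508). These 4 were lower on the epithelial scale too. Pigr and Reg3g stood at 344 and 173 FPKM in bile duct epithelium, but at 4.87 and 15.1 in that of pancreatic duct. Reg3b was nearer, at 479 and 302. Intestinal markers such as Alpi (94.6 and 3.13 FPKM) were also higher in bile duct epithelium. Their part in these falls was not tested. The chemokines Cxcl5 and Ccl20 rose, by 4.96 and 2.70 (limma adjusted p = 0.00895 and 0.00334), and also on the epithelial scale. Cxcl5 reached 543 and 360 FPKM in bile duct organoid 1 and pancreatic duct organoid 2 and 70.1 to 184 in the other cultures.

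Among receptors and partners of the 7 proteins, 28 were tested, of which 5 rose, 11 fell and 12 did not pass, with a median of -0.63 against 0.11 over all genes, of which 32.3% rose and 27.0% fell. On the epithelial scale 1 rose, 23 fell and 4 did not pass, where 0.791% of all genes rose and 83.8% fell, so that the fall there was near the background. Of the osteopontin receptors, the integrin beta subunit Itgb6 rose by 2.68 (limma adjusted p = 0.00407), but not on the epithelial scale (1.00, limma adjusted p = 0.121). Itga9 fell by 4.21 (limma adjusted p = 1.00e-06), from 12.9 and 21.1 FPKM to 0.0657 or less. Itgb1, a common beta subunit, stood at 188 to 519 FPKM in the organoids and did not pass (-0.09, limma adjusted p = 0.883). Itgav did not pass either (0.87, limma adjusted p = 0.236). On the epithelial scale both were lower, at -2.78 and -1.72 (limma adjusted p = 1.09e-05 and 0.00822). Scaled over all genes, Itgb3 and Itgb5 were lower, at -2.21 and -1.02 (limma adjusted p = 0.0224 and 0.01735).

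Lrp8, a clusterin receptor, rose by 2.57 (limma adjusted p = 0.000117), from 0.296 and 0.209 FPKM to 4.33 to 9.87, and rose under both scalings. Vldlr, a related clusterin receptor, did not pass (-0.50, limma adjusted p = 0.0966), and neither did the Lcn2 receptor Slc22a17 (-1.27, limma adjusted p = 0.0571). On the epithelial scale both were lower, at -2.87 and -3.67 (limma adjusted p = 1.02e-05 and 1.36e-08). Ezr, which links Cd44 to actin, rose by 2.33 (limma adjusted p = 0.000326), but not on the epithelial scale. Cd74, a partner of Cd44 in binding the cytokine Mif and a product of antigen-presenting cells, fell by 8.73 (limma adjusted p = 5.70e-07). Siglecg and Selp, which bind Cd24a, were lower, at -2.08 and -2.92 (limma adjusted p = 0.00218 and 2.11e-06). The Il33 receptor Il1rl1, below the level set for naming and chosen here for its role, stood at 2.79 and 0.516 FPKM in the epithelia and at most 0.0330 in the organoids.

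Of 15 regulators in the NF-kB and STAT3 list, 2 rose, 5 fell and 8 did not pass, with a median of -0.42 against 0.11 over all genes, of which 32.3% rose and 27.0% fell. On the epithelial scale 0 rose and 14 fell, where 0.791% of all genes rose and 83.8% fell. Cebpb, a C/EBP factor, rose by 3.01 (limma adjusted p = 8.05e-06), from 2.69 and 4.34 FPKM to 32.6 to 44.8, but not on the epithelial scale (0.56, limma adjusted p = 0.388). Cebpd fell by 1.29 (limma adjusted p = 0.0408). The STAT3 target Socs3 and the receptor subunit Il6st were lower, at -3.06 and -2.13 (limma adjusted p = 0.000315 and 0.000121), and Tnfrsf1a fell by 0.82 (limma adjusted p = 0.00151). Nfkb2 did not pass (0.98, limma adjusted p = 0.0889), and was lower on the epithelial scale (-1.62, limma adjusted p = 0.0123). No gene of these 4 lists was called between the organoid groups.

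Genes of most similar pattern were taken from 7472 genes by Pearson's r of log2(FPKM + 1) over the 8 libraries, as a description without a test, since the values share the same libraries and the same split of tissue and culture. For Cd44 they were Ndfip2 (r = 0.995) and Fermt1 (0.993), for Clu Smox (0.986) and Chmp1b (0.981), and for Cd24a Dsc2 (0.981) and Prr13 (0.981). For Lcn2 they were Zcchc6 (0.980) and Dusp16 (0.978), and for Il33 Dpm3 (0.976) and Esyt2 (0.973). For Spp1 they were Prelid2 (0.948) and Il1f9 (0.927), and for Ly6a its family member Ly6e (0.915) and Tex264 (0.900). Ly6e stood at 313 and 259 FPKM in the epithelia, 66.7, 290 and 266 in the bile duct cultures, and 441, 115 and 321 in pancreatic duct organoids. Reads that match several Ly6 genes could be assigned to either, and how they were counted is not given in the sources used here. Dusp16, a MAP kinase phosphatase, was highest in bile duct organoid 1 (16.2 FPKM) and pancreatic duct organoid 2 (12.7), as Lcn2 was.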

How the data were processed

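Per the labels' protocols, polyadenylated RNA was selected and an NEBNext Ultra kit was used for all 8 libraries. The authors deposited FPKM values for 31228 genes. No header names the unit, which was read from the values: multiplied by exon length in GENCODE M21, 28267 genes (90.5%) were whole multiples of 1 read in every library, within 0.05 read. The submitters' processing notes name Bowtie2 2.2.3, HISAT2 2.1.0, TopHat2 and HTSeq 0.6.0, with no role. The build and the use of strand in counting are not given in the sources used here. Coordinates matched GENCODE M21 (GRCm38) for 28575 genes. Every per-sample column was mapped by its name, so 0 were left aside.

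Groups came from the labels. FPKM was scaled by an unweighted trimmed mean of log ratios (trimming 30% of ratios and 5% of levels), with 1 added before log2, over the 6 organoids for the organoid comparison and over all 8 libraries otherwise. Genes needed 1 FPKM in 3 organoids or in 2 of the 8 libraries, and limma 3.58.1 (R 4.3.3) with an intensity trend was used with Benjamini-Hochberg adjustment at 0.05. Within an organ, genes were called at a log2 difference of 1 with all 3 cultures on the same side of the epithelium. Between epithelia they were called at a log2 difference of 1. Neither used a test. Levels are deposited FPKM and differences are on scaled values. On simulated data with 200 changed genes, the organoid test on 12106 genes recovered 82.0% of 4-fold and 56.8% of 2-fold changes with 8 false among 144 calls. The culture test on 14919 genes recovered 91.4% and 57.9%, with 9 false among 156. Noise was drawn for each gene separately, and changes were planted only in genes with a mean log2(FPKM + 1) above 2. Shifts that many genes of a culture share are not in these rates. The rates are thus not the power of the tests on these cultures.

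The 7 genes and the lists were chosen with earlier results of these data known. All 7 were reported. Of each list, up to 6 genes were named, those with the widest mean change from epithelium to organoid among genes with at least 5 FPKM in a library, plus direct receptors or ligands of the 7. Not every gene that met this rule is reported here. For each of the 7, the 2 genes of highest Pearson correlation among genes with at least 10 FPKM in a library were named. Alternatives covered scaling, pseudocount, filter, replicate block, trend, organ term and left-out libraries. Python 3.11.15 with pandas 2.3.3, numpy 2.4.6, scipy 1.17.1 and matplotlib 3.10.9 was also used.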

Additional observations from a re-analysis of the deposited data

Results flagged for a closer look

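The differences of Cd24a from epithelium to organoid had opposite signs in the 2 organs, and only that of pancreatic duct was large enough to be called. The mean log2 difference was -0.22 in bile duct, where all 3 organoids lay below their epithelium, and 1.13 in pancreatic duct, where all 3 lay above theirs. Whether the organs differ was not tested, since each epithelium is 1 library. Bile duct organoid 1 lay only 0.0059 below its epithelium on the scaled log2 values and above it in deposited FPKM (239 against 228). Scaled on the 5 epithelial genes, both were negative, at -1.85 (bile duct) and -2.61 (pancreatic duct).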

How the results depend on the processing

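Of the alternative values computed for single genes, 335 kept their direction and side of the threshold, 8 lost a call, 5 gained one and 36 changed sign, whether or not they were called. Scaling on the 5 epithelial genes gave 18 of these sign changes, and the exact permutation test on that scale, with the same differences, 4 more. Under it the culture differences of Clu, Spp1, Lcn2 and Cd24a were -1.64, -1.62, -1.29 and -2.23. In bile duct, Clu, Spp1 and Lcn2 were at -1.46, -1.51 and -1.17. In pancreatic duct, Ly6a, Clu, Spp1, Lcn2 and Cd24a were at -3.60, -1.83, -1.72, -1.42 and -2.61. Between the epithelia, Ly6a, Clu, Cd44, Spp1, Lcn2 and Cd24a were at -2.12, -1.10, -0.038, -0.94, -1.70 and -0.91. That scaling called 12626 genes in culture against tissue, 0.935% of them higher, where scaling over all genes called 8837, 54.5% of them higher. It put 10050 genes at least 2-fold apart in bile duct, 14184 in pancreatic duct and 13854 between the epithelia.

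With genes of at least 10 FPKM, fewer were tested, and the counts were 4684 for culture, 2918 in bile duct, 3141 in pancreatic duct and 833 between the epithelia. Leaving out 1 library at a time, the culture count ran from 4302 (without pancreatic duct epithelium, and 4757 without bile duct epithelium) to 9185, the organoid count from 0 to 16 (without pancreatic duct organoid 3), and Lcn2 in bile duct from -1.33 (without bile duct organoid 1) to 1.35. Values not called also crossed 0 when 1 library was left out: in bile duct Clu ran from -0.50 to 0.56 and Spp1 from -0.17 to 0.40, in pancreatic duct Ly6a ran from -0.33 to 0.57, between the organoid groups Cd44 ran from -0.64 to 0.15, and in culture against tissue Ly6a ran from -1.32 to 0.15 and Cd24a from -0.20 to 1.13. Without both bile duct organoid 1 and pancreatic duct organoid 2, chosen after seeing the data, Lcn2, Clu and Spp1 in bile duct were at -1.34, -0.50 and -0.18, and Ly6a in culture against tissue was at 0.028.

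No label says whether the shared replicate numbers pair the organoids. Deviations of same-numbered cultures from their group means correlated at -0.10, -0.44 and 0.48 for numbers 1, 2 and 3. With 3 cultures per group these values cannot settle it. With the replicate block limma called 0 genes between the organoid groups, as it did without it. Separating the 3 cultures with trace Y-linked reads (at most 0.0627 FPKM) from those without, chosen after seeing the data, also gave 0, and put Cd44 between the organoid groups at 0.17. These were also the 3 cultures of higher Xist (81.3 to 89.1 against 19.7 to 23.6 FPKM), so the split cannot be read as male against female cultures. Beyond the fewer genes or libraries named, the cause was not tested.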
